A study of Mus musculus with 106 samples.

Results

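The hypothalamus of mice housed at 10 °C was compared with that of mice housed at 22 °C (room temperature, RT) in bulk RNA-seq, with 3 libraries in each group. These 6 libraries are all the hypothalamus samples among the 106 samples of the series used here, and they were chosen by tissue and temperature alone, so every gene with enough reads was compared. The mice were wild type males of strain C57BL/6J by the study's methods (C57BL/6 in the sample labels), labelled as 11 weeks of age in both groups, and each library was made from the pooled tissue of 2 mice. The cold group was stepped down through 18 °C and then 14 °C, for 5 days each, before its 2 weeks at 10 °C, while the controls stayed at 22 °C. All mice were housed 2 per cage without nesting material, with chow and water at will and 12 h each of light and dark. With 22 °C below the thermoneutral zone of the mouse, the controls were themselves mildly cold. The treatment text given with the samples describes the warm exposure of another arm, so the temperatures used here come from the sample titles, their tags and the study's methods. The labels mark these libraries as used before in another series.

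The hypothalamus receives temperature signals from skin and core and drives the sympathetic outflow to brown fat, shivering and the blood vessels of the skin. It also matches food intake to energy use. In its arcuate nucleus, neurons that make agouti-related peptide (Agrp) and neuropeptide Y (Npy) promote feeding, and neurons that make proopiomelanocortin (Pomc) restrain it. Other hypothalamic neurons release vasopressin, oxytocin, thyrotropin-releasing hormone and corticotropin-releasing hormone, which reach the pituitary or the blood.

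The libraries held 13525354 to 15940103 counts at 10 °C and 15294487 to 21218147 counts at 22 °C. Of 24 hypothalamus marker genes all 24 were detected, and their summed level ran from 790.9 to 826.5 CPM (counts scaled to a common library size) at 22 °C and from 823.1 to 910.6 CPM at 10 °C, against 29.3 to 44.5 CPM in 5 brain libraries of the same table. CPM values use library sizes corrected by TMM factors, and replicates are given in the order 1, 2, 3. The libraries also carried RNA of other tissues. In 10 °C replicate 3 and, less so, 22 °C replicate 3, transcripts of liver cells stood above the other libraries, and they are described after the genes of the hypothalamus. Since tissue was read in bulk, fewer cells of a type and less RNA per cell cannot be told apart.

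Few genes differed between 10 °C and 22 °C in hypothalamus. Of 14526 genes tested with edgeR's quasi-likelihood F-test, 58 were higher and 26 were lower when both a fold change over 1.5 and an unadjusted p no greater than 0.05 were asked for, which is 0.578% of the genes. These 84 genes are named called genes here, and "rose" and "fell" are used of them alone. The unadjusted p limit alone was reached by 897 genes (6.18%), of which 509 were higher (3.5%) and 388 lower (2.67%) at 10 °C. No gene had an adjusted p under 0.05 in this test. The smallest adjusted p was 0.083, shared by 6 genes: Dedd2, Dnajb1, Soga1, Npy, Fosl2 and Npvf. With edgeR's exact test 24 genes had an adjusted p under 0.05, and with DESeq2 22 genes, of which 15 were found by both, among them Dnajb1, Npy, Fosl2 and Dbp. Of the 84 called genes, 67 had means under 5 CPM in both groups, so that most calls rest on weakly read genes. Of the 84, 11 stayed called under every alternative run, and the libraries on which single genes rest are given with those genes. In counts simulated from these libraries, 0.6144% of the unchanged genes were called and 4.755% reached the unadjusted p limit. The share of calls seen here, 0.578%, was no larger than that of the simulated unchanged genes.

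**Figure D1:**
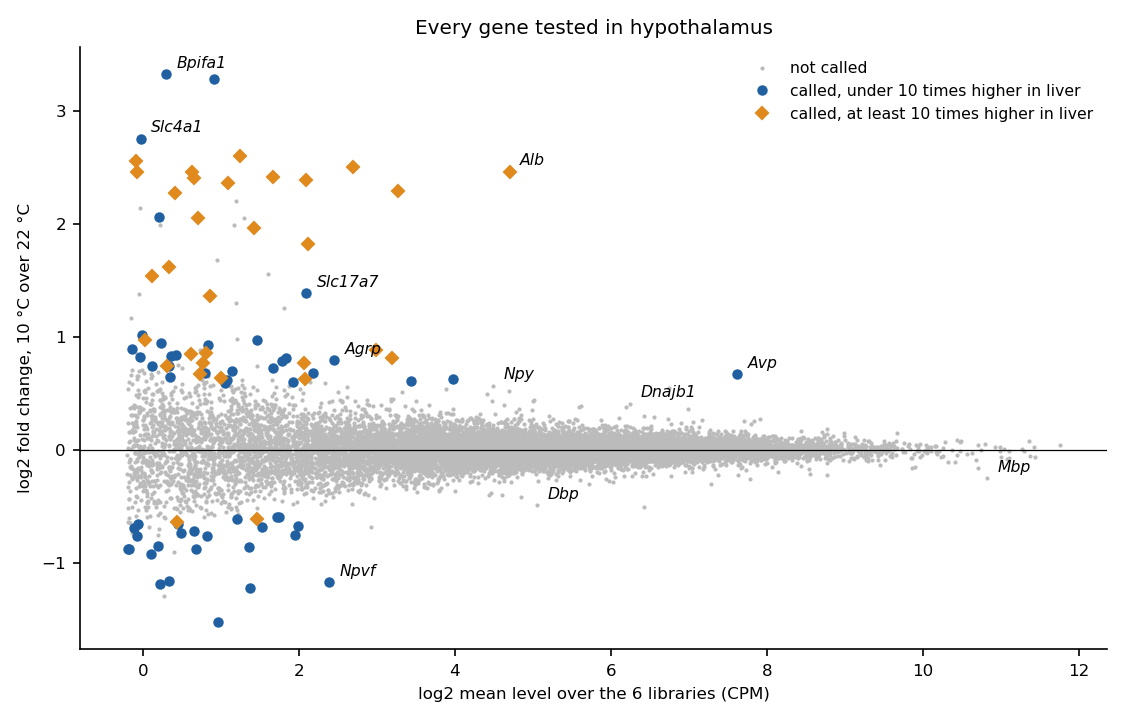
Each point is 1 of 14526 genes, with its log2 mean level in CPM over the 6 libraries on the x axis and its log2 fold change at 10 °C over 22 °C on the y axis; filled points are the 84 called genes. Above a level of 5 CPM few genes leave the central band. Diamonds are called genes at least 10 times higher in liver than in hypothalamus. They are 29 of the 58 genes that rose and 2 of the 26 that fell, against 442 of all genes tested.

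Genes of several hypothalamic neuropeptides differed between the groups, in both directions. Of 38 neuropeptide genes listed, 31 passed the filter on low counts, and 9 of these reached the unadjusted p limit of 0.05, 5 of them higher and 4 lower, against 6.18% of all genes. Agrp and Avp rose and Npvf fell, 3 called members against 0.578% of all genes. The median log2 fold change of the 31 genes was 0.01, against 0.00 for all genes.

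Npvf encodes the RFamide-related peptides, made by neurons of the dorsomedial hypothalamus and known as inhibitors of the reproductive axis. The gene lies on chromosome 6, from 50650672 to 50654439 on the minus strand of GRCm38. Its level was 6.28, 8.01 and 7.33 CPM at 22 °C and 3, 2.52 and 4.16 CPM at 10 °C. All 3 cold libraries lay below all 3 controls. Npvf fell by 1.17 ± 0.18 (SE) on the log2 scale, with an unadjusted p of 3.44e-05 and an adjusted p of 0.083 (edgeR quasi-likelihood test). It was the only gene that fell with a mean of at least 5 CPM at 22 °C.

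Both orexigenic peptides of the arcuate nucleus were higher at 10 °C. Agrp, the natural antagonist of the melanocortin receptors, measured 4.05, 3.53 and 4.40 CPM at 22 °C and 7.57, 6.49 and 6.83 CPM at 10 °C, with no overlap between the groups. Its log2 fold change was 0.79 ± 0.14, an increase of 1.73-fold, with an unadjusted p of 0.00012 and an adjusted p of 0.2. Npy measured 19.8, 17.3 and 17.4 CPM at 22 °C and 25.2, 26.7 and 28.7 CPM at 10 °C, again without overlap. Its log2 fold change of 0.57 ± 0.09 (1.48-fold, unadjusted p of 2.65e-05, adjusted p of 0.083) lay just under the fold limit. Agrp, on chromosome 8 from 105566698 to 105637393, shares annotated exon sequence with Ctcf on the other strand, and the library kit does not record strand as far as stated, so reads of the shared stretch cannot be told apart.

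The anorexigenic counterparts gave no such difference. Pomc measured 36.2, 40.9 and 44.4 CPM at 22 °C and 38.3, 32.6 and 41.6 CPM at 10 °C (log2 fold change -0.12 ± 0.09, unadjusted p of 0.24). Cartpt, whose peptide is made beside Pomc in the arcuate nucleus, ranged from 65.9 to 71.2 CPM at 22 °C and from 68.9 to 80.5 CPM at 10 °C, with overlapping groups.

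Avp, the vasopressin gene on chromosome 2 (130580620 to 130582554), was the most strongly read of the genes that rose. It measured 167, 142 and 147 CPM at 22 °C and 323, 185 and 218 CPM at 10 °C. The groups did not overlap, but the cold libraries differed widely, and replicate 1 was the highest. The log2 fold change was 0.67 ± 0.15 (unadjusted p of 0.00087, adjusted p of 0.43), and without 10 °C replicate 1 it was 0.40 (unadjusted p of 0.00045), under the fold limit. Oxt, the oxytocin gene that lies beside Avp and is expressed in neighbouring magnocellular neurons, ranged from 118 to 147 CPM at 22 °C and from 116 to 132 CPM at 10 °C, with an unadjusted p of 0.22.

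**Figure D2:**
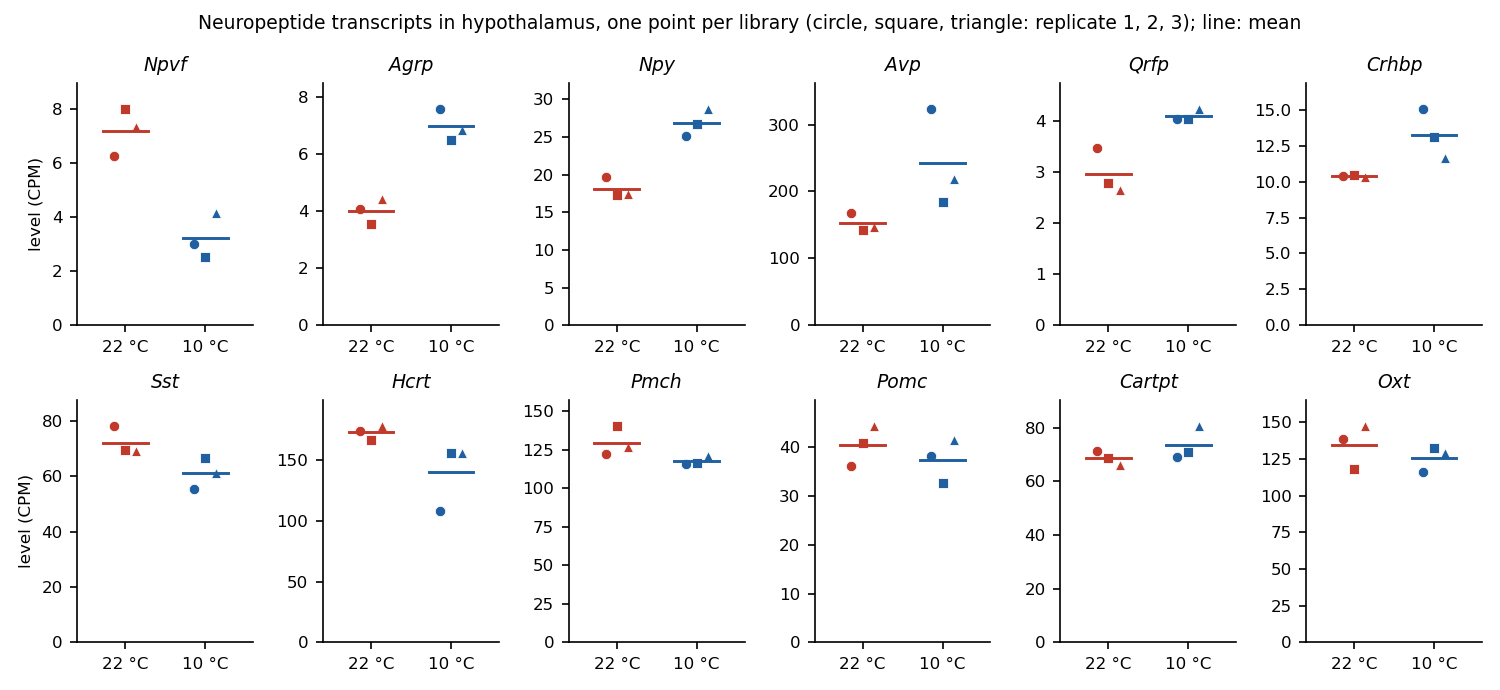
Levels in CPM (y axes from 0) of 12 neuropeptide genes in the 3 libraries at 22 °C and the 3 at 10 °C, with 1 point per library and the group mean as a line. Agrp, Npy, Avp, Qrfp and Crhbp lie higher at 10 °C without overlap, Npvf, Sst, Hcrt and Pmch lower without overlap, and Pomc, Cartpt and Oxt overlap.

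A further 5 members of the list passed the unadjusted p without reaching the fold limit, and Crhbp and Qrfp were higher. Crhbp, which encodes the protein that binds and blocks corticotropin-releasing hormone, measured 10.4, 10.5 and 10.4 CPM at 22 °C and 15.1, 13.1 and 11.7 CPM at 10 °C (0.35 ± 0.11 log2, unadjusted p of 0.0067). Qrfp, another orexigenic RFamide peptide, had a log2 fold change of 0.48 ± 0.17 (unadjusted p of 0.017). Lower at 10 °C were the peptides of the lateral hypothalamus, orexin (Hcrt) and melanin-concentrating hormone (Pmch), and somatostatin (Sst), which restrains growth hormone release. Hcrt measured 174, 166 and 178 CPM at 22 °C and 108, 156 and 156 CPM at 10 °C (log2 fold change -0.31 ± 0.11, unadjusted p of 0.015), and without 10 °C replicate 1 the difference was -0.15. Sst measured 78.0, 69.4 and 69.0 CPM at 22 °C and 55.4, 66.6 and 61.0 CPM at 10 °C (-0.24 ± 0.07 log2, unadjusted p of 0.0073). Pmch differed by -0.14 ± 0.06 on the log2 scale. Pmch lost the p limit without 22 °C replicate 2 (-0.08) or without 10 °C replicate 1 or 2, Qrfp without 22 °C replicate 3 (0.39, unadjusted p of 0.073), and Crhbp was at the limit without 10 °C replicate 1 (0.25, unadjusted p of 0.05023). For these 5 genes the adjusted p was between 0.75 and 0.78. The full cyclic AMP response element, TGACGTCA, equal to its own reverse complement, is found in 1.62% of 250-base promoter windows (RefSeq, GRCm38.p6, the first window listed for a gene) and in 2 of 29 peptide genes with a window, Sst and Cartpt. The Sst window is shown as that of the peptide gene that differed and carries the element, with the element in capitals.
Sst, chr16:23890845-23891094, minus strand: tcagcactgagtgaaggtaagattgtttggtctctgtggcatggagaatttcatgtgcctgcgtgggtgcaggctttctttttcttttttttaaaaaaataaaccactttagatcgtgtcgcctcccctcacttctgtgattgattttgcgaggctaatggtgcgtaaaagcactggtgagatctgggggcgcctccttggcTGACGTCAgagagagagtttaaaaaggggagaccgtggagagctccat

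Some hypothalamus marker genes differed between the groups, and their values are given here beside those of the peptides. Of the 24 markers, 6 were higher and 2 lower at the unadjusted p, against 3.5% and 2.67% of all genes. Among them Agrp, Avp, Hcrt and Pmch were already counted with the neuropeptides, so the lists are not independent. Besides Agrp, Avp and Rax, the higher markers included Sim1, a transcription factor of the paraventricular nucleus (0.23 ± 0.07 log2, unadjusted p of 0.0068), and Nr5a1 of the ventromedial nucleus (0.28 ± 0.12, unadjusted p of 0.045). The lower markers were Hcrt and Pmch. Sim1 ranged from 32.8 to 38.2 CPM at 22 °C and from 41.5 to 43.8 CPM at 10 °C, without overlap. Rgs16, a thalamus marker, was lower at 20.7, 21.3 and 15.2 CPM against 24.2, 25.6 and 25.3 CPM (-0.39 ± 0.11 log2, unadjusted p of 0.0048), and at -0.25 without 10 °C replicate 3. Nr5a1 lost the p limit without 22 °C replicate 2 or 3 or 10 °C replicate 1 (0.14) or 3. Avp and Rax lost their calls, Hcrt moved to -0.15 and Pmch lost the p limit when 10 °C replicate 1 was left out. Summed thalamus markers ran from 631.3 to 691 CPM at 22 °C and from 615.2 to 640.5 CPM at 10 °C. The part of the dissected area in the peptide values was not tested.

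The other releasing hormones did not pass the test. Trh, which drives the thyroid axis and is itself used as a signal in thermogenesis, ranged from 95.2 to 116 CPM at 22 °C and from 109 to 111 CPM at 10 °C (0.09 ± 0.07 log2, unadjusted p of 0.24). Crh differed by 0.01 ± 0.22 and Ghrh by -0.26 ± 0.16 on the log2 scale, both with overlapping groups. Adcyap1, whose peptide PACAP acts in thermogenic circuits, and Bdnf differed by 0.05 ± 0.06 and 0.06 ± 0.07.

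The receptors and channels of energy balance and temperature sensing moved little. Of 41 genes listed, 39 were tested and 1 had an unadjusted p within the 0.05 limit, against 6.18% of all genes. This was Mchr1, the receptor of melanin-concentrating hormone, at 11.1 to 12.3 CPM at 22 °C and 12.98 to 14.7 CPM at 10 °C (0.21 ± 0.10 log2, unadjusted p of 0.046), and it lost the limit without 22 °C replicate 1 or 2 or 10 °C replicate 2 or 3 (0.16 to 0.23). Gipr, the receptor of the gut hormone GIP, differed by -0.55 ± 0.27 on the log2 scale without passing (unadjusted p of 0.063). The most abundant members, Igf1r and Ntsr2, differed by 0.03 ± 0.05 and -0.08 ± 0.06.

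Of 15 thyroid hormone genes tested, 1 passed the unadjusted p, against 6.18% of all genes. Dio2, the deiodinase that makes active thyroid hormone in tanycytes and astrocytes, measured 14.8, 14.9 and 13.4 CPM at 22 °C and 17.6, 15.1 and 17.6 CPM at 10 °C (0.22 ± 0.10 log2, unadjusted p of 0.037, adjusted p of 0.8), and it lost the limit without 22 °C replicate 3 or 10 °C replicate 1 or 3 (0.17 to 0.19). Of 15 markers of tanycytes, which line the third ventricle, and of ependyma, 3 were higher and none lower at the unadjusted p, against 3.5% and 2.67% of all genes, with a median log2 fold change of 0.04. They were Rax, Gpr50 and Col23a1. Rax rose from 0.98, 1.89 and 2.13 CPM to 3.85, 2.21 and 2.15 CPM, which is 0.69 ± 0.31 on the log2 scale, and it was no longer called without 10 °C replicate 1 (0.36, unadjusted p of 0.28) or without 22 °C replicate 1 (0.44). Gpr50 ranged from 11.6 to 13.4 CPM at 22 °C and from 15 to 16.0 CPM at 10 °C (0.31 ± 0.09 log2, unadjusted p of 0.0054). Of the 20 genes of growth and pituitary control, 2 were lower at the unadjusted p, against 2.67% of all genes, Sst and Socs2, the latter a feedback inhibitor of growth hormone signalling (-0.30 ± 0.11 log2, unadjusted p of 0.017). Socs2 lost the limit without 22 °C replicate 1 (-0.22) or 10 °C replicate 1 (-0.26).

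Heat shock chaperones, which refold proteins and are induced through heat shock factor 1, had members that differed in 1 direction. Of 22 genes tested, 5 were higher and none lower at the unadjusted p, against 3.5% and 2.67% of all genes, and 1 was called. The median log2 fold change of the 22 genes was 0.08. Dnajb1, the HSP40 co-chaperone on chromosome 8 (83608193 to 83612653), measured 70.2, 60.7 and 65.6 CPM at 22 °C and 86.5, 87.2 and 86.9 CPM at 10 °C. The cold libraries lay within 1 CPM of each other and above every control. Its log2 fold change was 0.41 ± 0.06 (unadjusted p of 1.85e-05, adjusted p of 0.083), and its adjusted p was 1.24e-05 with edgeR's exact test and 5.8e-05 with DESeq2.

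The inducible HSP70 genes were read at low levels. Hspa1b measured 3.73, 1.89 and 1.99 CPM at 22 °C and 3.65, 4.16 and 5.20 CPM at 10 °C, so that 1 control overlapped the cold group. It rose by 0.79 ± 0.26 log2 (unadjusted p of 0.0097, adjusted p of 0.76), and without 22 °C replicate 3 it was no longer called (0.62, unadjusted p of 0.051). Hspa1a measured 5.88, 3.60 and 4.54 CPM at 22 °C and 6.46, 6.75 and 6.68 CPM at 10 °C (0.51 ± 0.17 log2, unadjusted p of 0.011). Both genes are near-identical copies, and the split of reads between them is uncertain. Chordc1, a co-chaperone of HSP90, differed by 0.20 ± 0.05 on the log2 scale (unadjusted p of 0.0016), and Dnaja1 by 0.17 ± 0.07 (unadjusted p of 0.029). Dnaja1 lost the limit without 10 °C replicate 1 (0.09, unadjusted p of 0.2) or 22 °C replicate 1 (unadjusted p of 0.081). The abundant constitutive chaperones did not pass. Hspa8 differed by -0.01 ± 0.06, Hsp90aa1 by -0.03 ± 0.06 and Hsp90ab1 by -0.07 ± 0.06, and the endoplasmic reticulum chaperone Hspa5 by 0.06 ± 0.06.

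Heat shock factor binds inverted repeats of the unit GAA. The letters GAANNTTC and TTCNNGAA, each equal to its own reverse complement, were searched in the 250 bases before the start of each gene (RefSeq promoters, GRCm38.p6, the first window listed for a gene). Of 27025 genes 12.9% hold at least 1 of them. Of 16 heat shock genes with a promoter in the table, 6 hold one, and 3 of these 6, Hspa1a, Hspa1b and Dnaja1, passed the unadjusted p, while the Dnajb1 and Chordc1 windows hold none. The windows of these 3 are shown as the heat shock genes that were higher and carry the motif, with the motif in capitals. Those of Hspa1a and Hspa1b share 247 of 250 bases.
Hspa1b, chr17:34959239-34959488, minus strand: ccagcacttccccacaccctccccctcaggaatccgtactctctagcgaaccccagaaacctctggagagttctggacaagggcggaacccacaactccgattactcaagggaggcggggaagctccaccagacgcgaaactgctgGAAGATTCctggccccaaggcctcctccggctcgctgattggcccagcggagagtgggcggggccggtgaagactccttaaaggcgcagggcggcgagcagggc
Hspa1a, chr17:34972157-34972406, minus strand: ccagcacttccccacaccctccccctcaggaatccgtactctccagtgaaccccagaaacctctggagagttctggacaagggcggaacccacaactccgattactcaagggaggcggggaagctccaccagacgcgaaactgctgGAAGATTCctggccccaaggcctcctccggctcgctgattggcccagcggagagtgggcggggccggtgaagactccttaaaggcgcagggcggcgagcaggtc
Dnaja1, chr4:40722218-40722467, plus strand: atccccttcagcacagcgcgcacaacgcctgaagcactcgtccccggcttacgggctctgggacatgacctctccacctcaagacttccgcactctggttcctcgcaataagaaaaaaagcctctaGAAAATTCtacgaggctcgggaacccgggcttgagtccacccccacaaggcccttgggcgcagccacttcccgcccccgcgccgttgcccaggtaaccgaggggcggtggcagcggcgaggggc

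Immediate early genes are transcribed within minutes of neuronal activity. Of 20 tested, 5 were higher and none lower at the unadjusted p, against 3.5% and 2.67% of all genes, with a median log2 fold change of 0.14 and no called member. Fosl2, a member of the AP-1 family, measured 18.1, 17.2 and 17.7 CPM at 22 °C and 24.1, 25.3 and 25.1 CPM at 10 °C, with tight replicates and no overlap. Its log2 fold change was 0.49 ± 0.08 (unadjusted p of 2.95e-05, adjusted p of 0.083). Fos measured 22.2, 25.9 and 16.3 CPM at 22 °C and 36.1, 29.9 and 25.1 CPM at 10 °C, with 1 control above 1 cold library (0.52 ± 0.16 log2, unadjusted p of 0.0063). Nr4a3, Junb and Arc differed by 0.44 ± 0.18, 0.24 ± 0.10 and 0.19 ± 0.07. Without 22 °C replicate 3 Fos was at 0.34 and Nr4a3 at 0.27, and Nr4a3 then lost the p limit, as it did without 10 °C replicate 1 or 2. Junb lost it without 10 °C replicate 1 (0.12) or 22 °C replicate 1 or 3, and Arc without 22 °C replicate 1 or 10 °C replicate 3.

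The 2 cold-inducible RNA-binding proteins went in opposite directions and neither reached the fold limit. Cirbp measured 71.6, 86.2 and 91.9 CPM at 22 °C and 69.5, 72.3 and 70.4 CPM at 10 °C, with 1 control inside the cold range (-0.24 ± 0.08 log2, unadjusted p of 0.011), and without 22 °C replicate 3 it did not pass (-0.16, unadjusted p of 0.066). Rbm3 measured 28.8, 24.4 and 28.6 CPM at 22 °C and 30.7, 31.1 and 30.8 CPM at 10 °C (0.17 ± 0.08 log2, unadjusted p of 0.046), and it did not pass with edgeR's exact test or DESeq2, without 22 °C replicate 2 (0.10, unadjusted p of 0.2) or without any 1 of the cold libraries (unadjusted p of 0.078 to 0.1).

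Clock genes form a loop in which Arntl and Clock activate Per, Cry, Nr1d1 and Dbp, whose products close the loop or act on other targets. Of 20 tested, 4 were higher and 4 lower at the unadjusted p, against 3.5% and 2.67% of all genes, and none was called, with a median log2 fold change of -0.01. Dbp, an output transcription factor, measured 31.3, 39.8 and 44.9 CPM at 22 °C and 28.8, 26.3 and 27.8 CPM at 10 °C, with no overlap (-0.49 ± 0.11 log2, unadjusted p of 0.00079, adjusted p of 0.43). Nr1d1, the repressor REV-ERB alpha, measured 24.5, 29.1 and 27.8 CPM at 22 °C and 21.6, 23.1 and 22.5 CPM at 10 °C (-0.28 ± 0.08 log2, unadjusted p of 0.006). Ciart and Bhlhe40, both transcriptional repressors, were lower by 0.26 and 0.13 on the log2 scale, but when 1 library was left out Ciart kept the p limit only without 22 °C replicate 3 and Bhlhe40 only without 22 °C replicate 2.

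Arntl and Nfil3, known targets of REV-ERB, were higher. Arntl measured 46.4, 39.0 and 41.2 CPM at 22 °C and 54.0, 46.8 and 51.9 CPM at 10 °C, again without overlap (0.27 ± 0.08 log2, unadjusted p of 0.0039). Nfil3 ranged from 9.84 to 11.1 CPM at 22 °C and from 12.5 to 13.2 CPM at 10 °C (0.30 ± 0.09 log2, unadjusted p of 0.0077), and Clock differed by 0.12 ± 0.05, losing the p limit without replicate 1 of either group (0.08 and 0.09). Per1, Per2, Per3, Cry1, Cry2 and Nr1d2 did not pass, with log2 fold changes from -0.07 to 0.17. Nr1d1 shares exon sequence with Thra on the other strand, and Dbp with Sphk2, so part of their reads cannot be assigned without strand. The hour at which each tissue was taken is not given in the sources used here.

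The E-box CACGTG, the site bound by Clock and Arntl, is found in 6.05% of the 250-base windows and in 5 of 17 clock genes with a window, of which Ciart alone passed the unadjusted p. The core of the ROR and REV-ERB element, TAGGTCA on either strand, is found in 2.27% of windows and in 1 of the 17, that of Nfil3. The 2 windows are shown because these are the clock genes that differed and carry a motif, with the motif in capitals, written for Nfil3 as its reverse complement.
Ciart, chr3:95882229-95882478, minus strand: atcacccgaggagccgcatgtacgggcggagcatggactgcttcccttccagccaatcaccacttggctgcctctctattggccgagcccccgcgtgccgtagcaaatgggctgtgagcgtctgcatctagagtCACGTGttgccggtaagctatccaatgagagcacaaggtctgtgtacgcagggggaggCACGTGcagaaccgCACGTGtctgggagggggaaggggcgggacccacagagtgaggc
Nfil3, chr13:52981040-52981289, minus strand: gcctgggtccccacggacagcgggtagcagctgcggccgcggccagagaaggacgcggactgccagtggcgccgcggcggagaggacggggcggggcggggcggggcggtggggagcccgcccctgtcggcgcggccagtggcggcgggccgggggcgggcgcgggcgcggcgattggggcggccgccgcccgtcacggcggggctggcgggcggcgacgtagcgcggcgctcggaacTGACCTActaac

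Glucocorticoid responsive genes were divided. Of 21 tested, 3 were higher and 5 lower at the unadjusted p, against 3.5% and 2.67% of all genes, and 1 was called, against 0.578%, with a median log2 fold change of -0.10. Hif3a, a hypoxia-inducible factor subunit known to respond to glucocorticoids, measured 5.88, 3.53 and 5.11 CPM at 22 °C and 3.13, 2.33 and 3.19 CPM at 10 °C, without overlap. It fell by 0.75 ± 0.21 on the log2 scale (unadjusted p of 0.0042, adjusted p of 0.72). The metallothioneins, which bind zinc and copper, were lower together. Mt1 measured 122.7, 114 and 116 CPM at 22 °C and 105, 99.3 and 97.1 CPM at 10 °C (-0.23 ± 0.05 log2, unadjusted p of 0.00077). Mt2 measured 31.5, 36.8 and 31.1 CPM at 22 °C and 28.8, 22 and 23.3 CPM at 10 °C (-0.42 ± 0.10 log2, unadjusted p of 0.0017). In both, all cold libraries lay below all controls. Zbtb16 and Fkbp5 differed by -0.29 ± 0.13 and -0.18 ± 0.08, with overlapping groups. When 1 library was left out Zbtb16 kept the p limit only without 22 °C replicate 2 or 10 °C replicate 2, and Fkbp5 only without 22 °C replicate 1. Pdk4, the kinase that switches off pyruvate oxidation, was higher at 7.72 to 9.13 CPM against 6.05 to 6.75 CPM (0.40 ± 0.12 log2, unadjusted p of 0.0062).

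Myelin genes were lower at 10 °C by a small and even amount. Of 16 oligodendrocyte and myelin genes tested, 10 were lower and none higher at the unadjusted p, against 2.67% and 3.5% of all genes. In 8 of the 16 all cold libraries lay below all controls, against 5.71% of all genes. The median log2 fold change was -0.17, and none reached the fold limit. Mbp, which encodes myelin basic protein, measured 1968, 1882 and 2093 CPM at 22 °C and 1637, 1728 and 1617 CPM at 10 °C (-0.25 ± 0.05 log2, unadjusted p of 0.00015, adjusted p of 0.21). Opalin, a membrane protein of myelinating cells, measured 25.9, 30.7 and 26.1 CPM at 22 °C and 20.5, 19.6 and 22.6 CPM at 10 °C (-0.40 ± 0.09 log2, unadjusted p of 0.00089). Mobp, Cnp, Mal, Mag, Mog, Ermn and Tspan2 differed by between -0.26 and -0.15 on the log2 scale. Mag was at -0.16 without 22 °C replicate 3, and Tspan2 lost the p limit without 10 °C replicate 3 (-0.17). Cnp shares exon sequence with Dnajc7 and Ermn with Galnt5 on the other strand. The summed level of the list was 6076.5 to 6548.3 CPM at 22 °C and 5457.8 to 5516.0 CPM at 10 °C.

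Markers of other glia had fewer members past the limit. Of 10 oligodendrocyte precursor genes none passed the unadjusted p, with a median log2 fold change of -0.08. Against 3.5% higher and 2.67% lower among all genes, astrocyte markers had 2 of 12 higher, Sox9 (0.27 ± 0.10 log2) and Gjb6 (0.14 ± 0.06), while the abundant glutamate transporter Slc1a2 differed by 0.08 ± 0.04. Microglia markers had 2 of 14 lower, Csf1r and Cx3cr1, by 0.12 and 0.13 on the log2 scale. Of 12 neuron markers 1 passed, Syt1 (-0.10 ± 0.05 log2), and of 12 endothelial markers none. Each of these 5 genes lost the limit when certain libraries were left out. Sox9 lost the p limit without 22 °C replicate 1 or 10 °C replicate 3, Gjb6 without 22 °C replicate 1 or 3 or 10 °C replicate 1 (0.09), Csf1r without any library but 22 °C replicate 2, Cx3cr1 without any of the 6, and Syt1 without 22 °C replicate 3 (-0.07) or any cold library. Summed neuron markers ran from 5740 to 5827 CPM at 22 °C and from 5618 to 5797 CPM at 10 °C. The part of tissue composition in the myelin values was not tested.

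**Figure D3:**
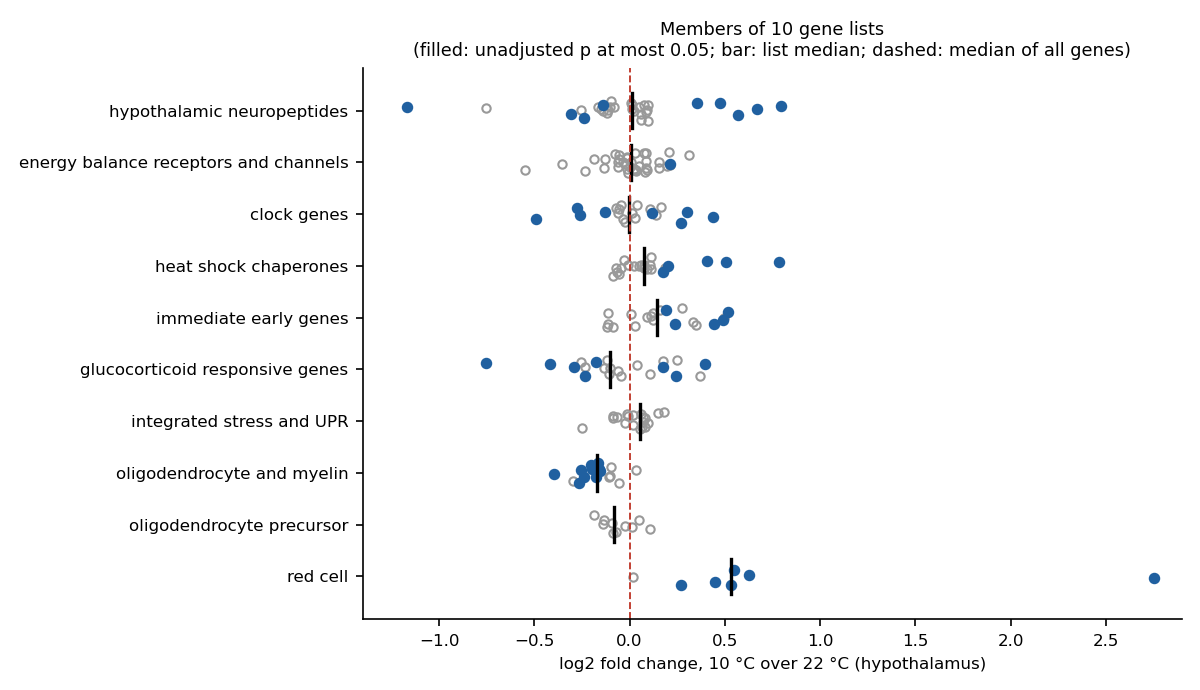
Log2 fold changes at 10 °C over 22 °C (x axis) of the tested members of 10 gene lists in hypothalamus; filled points have an unadjusted p within the 0.05 limit, black bars are list medians and the dashed line is the median of all genes. Neuropeptides and clock genes spread to both sides, heat shock and immediate early genes lean to the right, myelin genes sit at a median of -0.17 and red cell genes at 0.53.

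Red cell transcripts were higher in all 3 cold libraries. Of 7 genes tested, 6 were higher at the unadjusted p, against 3.5% of all genes. In 6 of the 7 all cold libraries lay above all controls, against 6.22% of all genes. Hbb-bs, a beta globin, measured 65.3, 119 and 78.8 CPM at 22 °C and 127, 129 and 128 CPM at 10 °C (0.55 ± 0.15 log2, unadjusted p of 0.0037). Hbb-bt and Slc4a1 rose, where 0.399% of all genes did. Slc4a1 was at 0.26, 0.44 and 0.09 CPM at 22 °C against 1.17, 3.47 and 0.45 CPM at 10 °C. Its control values lie under the filter on low counts, so Slc4a1 was tested only through the cold group. Its groups were kept apart by 0.44 against 0.45 CPM alone. Globin copies share sequence, so the split between Hba-a1 and Hba-a2 and between Hbb-bs and Hbb-bt is uncertain. Summed red cell genes ran from 184 to 253.6 CPM at 22 °C and from 275.6 to 284.3 CPM at 10 °C. Ighm, the immunoglobulin mu chain, rose from 8.30, 9.97 and 7.57 CPM to 13.4, 13.6 and 12.2 CPM (0.61 ± 0.12 log2, unadjusted p of 0.00023, adjusted p of 0.28). Hba-a2 lost the p limit without 22 °C replicate 1 (0.26) or 10 °C replicate 1 or 3. Hbb-bt was under the fold limit without 22 °C replicate 1, 22 °C replicate 3 or 10 °C replicate 1, and Ighm without 22 °C replicate 3 (0.51) or 10 °C replicate 2 (0.58). How much blood each sample held was not tested.

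Liver transcripts made up much of the list of genes that rose. Of 21 hepatocyte markers tested, 11 rose and none fell, but in none of them did the groups separate. Only 12 markers passed the filter on low counts without 10 °C replicate 3. Some were thus tested only through the library where they are high, and the share is not comparable with the 0.399% of all genes. Alb, the albumin gene, measured 0.98, 1.64 and 19.2 CPM at 22 °C and 9.26, 3.59 and 122 CPM at 10 °C. The highest value in each group was that of replicate 3. Apob measured 0.72, 1.14 and 7.14 CPM at 22 °C and 5.93, 1.64 and 41.6 CPM at 10 °C in the same order of libraries. The summed level of the hepatocyte list without Itih3, which the brain itself expresses, was 11.4, 13.7 and 64.3 CPM at 22 °C and 40.9, 18.9 and 364.4 CPM at 10 °C. Relative to liver libraries of the same table, 10 °C replicate 3 held 0.195% of the liver level and 22 °C replicate 1 held 0.00607%. Without 10 °C replicate 3 none of the 12 hepatocyte genes still tested was called, and without 22 °C replicate 1 none of 22. Without 10 °C replicate 3 Alb had a log2 fold change of -0.27 with an unadjusted p of 0.76, and Apob 0.23. Without 22 °C replicate 2 both lost the p limit as well (1.98 and 1.88), and without 22 °C replicate 3 they were at 5.05 and 4.09.

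Of the 58 genes that rose, 29 were at least 10 times higher in liver than in hypothalamus at 22 °C. So were 2 of the 26 genes that fell and 442 of all 14526 genes tested. In 25 of the 29 the highest library was 10 °C replicate 3. Leaving out the genes at least 10 times higher in liver, 29 rose and 24 fell. Without 10 °C replicate 3, 70 genes were called, 41 higher and 29 lower, of which 41 were among the 84. Npvf, Agrp and Hif3a stayed called without either replicate 3, and Npy, Dnajb1, Fosl2, Dbp and Mbp kept an unadjusted p under 0.05.

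**Figure D4:**
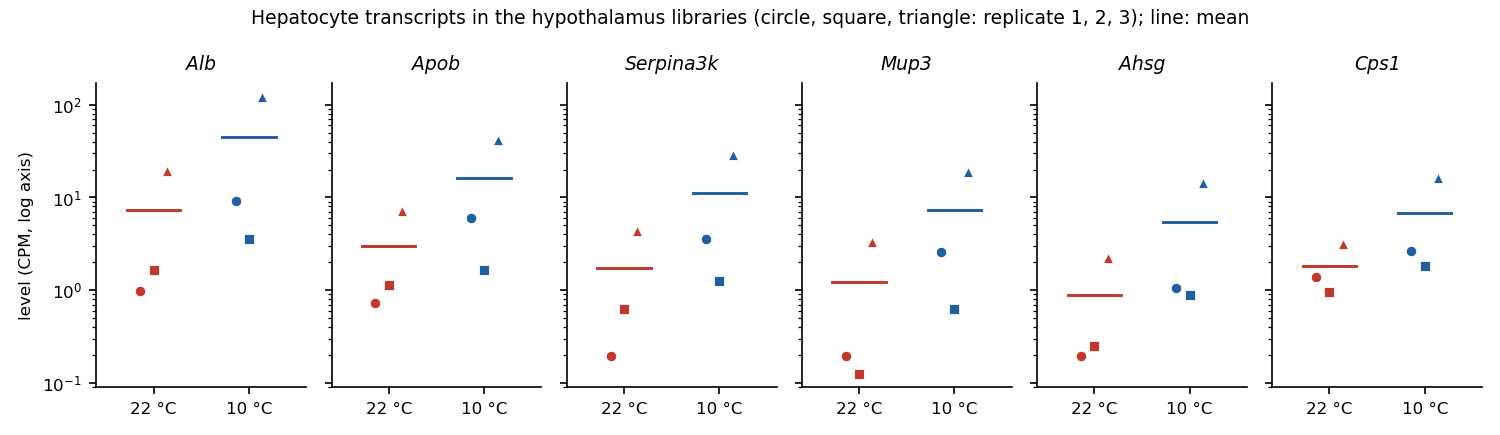
Levels in CPM on a log axis of 6 hepatocyte genes in the hypothalamus libraries at 22 °C and 10 °C, with circles, squares and triangles for replicates 1, 2 and 3 and lines for group means. In all 6 genes the triangle, replicate 3, is the highest point of its group.

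A few more called genes were set by 1 library. Slc17a7, the glutamate transporter of cortical and hippocampal neurons, measured 1.24, 3.03 and 2.65 CPM at 22 °C and 2.94, 1.95 and 13.8 CPM at 10 °C, and without 10 °C replicate 3 its log2 fold change was 0.07, and it also lost its call without 22 °C replicate 1 (1.11, unadjusted p of 0.11) or 22 °C replicate 3 (unadjusted p of 0.063). S100a9, a neutrophil gene, stood at 4.92 CPM in 10 °C replicate 2 and under 0.7 CPM in the other 5 libraries, and it lost its call when any 1 control was left out (unadjusted p of 0.055 to 0.085). Myh4, a myosin of fast muscle, fell from 2.16, 6.81 and 1.99 CPM to 1.63, 1.95 and 0.97 CPM, and without 22 °C replicate 2 its difference was -0.43 log2 with an unadjusted p of 0.17, and without 10 °C replicate 3 its unadjusted p was 0.07. Of 9 skeletal muscle markers tested, 3 were lower and none higher at the unadjusted p, against 2.67% and 3.5% of all genes. In 3 of the 9 all cold libraries lay below all controls, against 5.71% of all genes. Summed muscle markers ran from 46.1 to 61.88 CPM at 22 °C, highest in replicate 2, and from 43.5 to 46.12 CPM at 10 °C. How much muscle RNA each sample held was not tested.

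Of the 84 called genes, 48 had groups that did not overlap, 27 higher and 21 lower. Among all genes tested 11.9% did not overlap. The called genes were chosen by p and fold change in the same libraries, so the 2 shares are not comparable. Besides Agrp and Slc4a1 the 12 largest rises of this kind were those of Hhipl2, Mki67, Aqp1, Edar, Slc13a1, Fam227b, Arg1, Cyp2t4, Mst1 and Rhod, from 0.74 to 1.02 on the log2 scale. The limits of the Slc4a1 call are given with the red cell genes. Aqp1, Arg1, Mst1 and Rhod were at least 10 times higher in liver. Mki67, a marker of dividing cells, measured 1.64, 1.64 and 2.27 CPM at 22 °C and 3.26, 5.23 and 2.45 CPM at 10 °C (0.97 ± 0.28 log2, unadjusted p of 0.0045), and 0.615 without 10 °C replicate 2, still called. Calls were lost for Edar without 22 °C replicate 3, Fam227b without 22 °C replicate 1, Arg1 without 10 °C replicate 3 (0.24) or any 1 control, and Rhod without 10 °C replicate 1 (0.40) or 22 °C replicate 1 or 2. Slc13a1, a sulfate transporter, measured 1.44, 1.01 and 1.23 CPM at 22 °C and 2.35, 2.08 and 2.599 CPM at 10 °C.

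Besides Npvf, Myh4 and Hif3a, the 12 largest falls were those of Esrrb, Fau, Samd3, Tnfrsf22, Daw1, Krt73, Tex14, 4933427I04Rik and Traf3ip3, from -1.17 to -0.72 on the log2 scale. Esrrb, an orphan nuclear receptor, measured 2.03, 1.20 and 2.03 CPM at 22 °C and 0.46, 1.07 and 0.82 CPM at 10 °C (-1.17 ± 0.34 log2, unadjusted p of 0.0054). Fau is a ribosomal protein gene with many copies in the genome, and its level here, 1.20 to 1.51 CPM at 22 °C, is low for such a gene, so its count is uncertain. Daw1, needed for the assembly of motile cilia, measured 3.47, 4.04 and 2.46 CPM at 22 °C and 2.22, 1.64 and 1.56 CPM at 10 °C. Calls were lost for Fau without 10 °C replicate 2 (-0.54) or 22 °C replicate 1 or 3, Samd3 without 10 °C replicate 1 or 3, Tnfrsf22 without 10 °C replicate 2 or 3, Krt73 without 10 °C replicate 2 (-0.51) or 3 or 22 °C replicate 3, 4933427I04Rik without 10 °C replicate 1 or 22 °C replicate 3, and Traf3ip3 without 10 °C replicate 2. Samd3 was at -1.38 without 10 °C replicate 2.

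At higher levels, several genes under the fold limit separated the groups with small standard errors. Dedd2, a death effector domain protein, measured 28.4, 26.5 and 27.4 CPM at 22 °C and 36.3, 38.0 and 37.4 CPM at 10 °C (0.44 ± 0.06 log2, adjusted p of 0.083). Soga1 measured 105, 110 and 119 CPM at 22 °C and 147, 140 and 144 CPM at 10 °C (0.36 ± 0.05 log2, adjusted p of 0.083). Ccdc117, Cxcl12, Raph1, Spen and Atp2b4, a plasma membrane calcium pump, were higher by 0.25 to 0.43 on the log2 scale. Tmem88b ranged from 57.0 to 60.5 CPM at 22 °C and from 45.9 to 48.9 CPM at 10 °C (-0.31 ± 0.06 log2, adjusted p of 0.2). These 8 genes were chosen by the size of their p after their values were seen.

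The lists of this paragraph had at most 2 members past the unadjusted p, against 6.18% of all genes. Of 19 genes of the integrated stress and unfolded protein response none passed the unadjusted p, with Ppp1r15a at -0.25 ± 0.12 log2 the nearest (unadjusted p of 0.053). Of 23 cholesterol genes 1 was lower, Nsdhl (-0.17 ± 0.07 log2), and Hmgcs1 differed by -0.06. Of 30 fatty acid and triglyceride genes 1 was higher, Pdk4, and 1 lower, Fabp7 (-0.24 ± 0.09 log2), while Fasn and Scd2 differed by 0.02 and -0.08. Of 21 interferon stimulated genes 1 was higher, Irf9 (0.26 ± 0.09 log2). Of 18 genes of fast neurotransmission 2 were higher, Slc17a7 and Hdc, the enzyme that makes histamine in the tuberomammillary nucleus (0.21 ± 0.08 log2, unadjusted p of 0.025). The p limit was lost by Nsdhl without 22 °C replicate 1 or 3 or 10 °C replicate 2 or 3, by Fabp7 without 22 °C replicate 1 (-0.13) or 3 or 10 °C replicate 1 or 3, by Irf9 without 10 °C replicate 3, and by Hdc without 22 °C replicate 3 (0.13) or 10 °C replicate 1. Slc17a7 was at 0.07 without 10 °C replicate 3.

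The thermogenic list of the study had 9 of 132 tested members past the unadjusted p (6.82%) and 1 called, Gpr3 (0.73 ± 0.21 log2), and its fatty acid metabolism list had 14 of 227 past the unadjusted p (6.17%) and 3 called, C3, Cyp2e1 and Fabp1, which are among the genes at least 10 times higher in liver. Both shares lie near the 6.18% of all genes. Gpr3 was under the fold limit without 22 °C replicate 2 (0.57), and C3, Cyp2e1 and Fabp1 lost their calls without 22 °C replicate 1 or 2, as C3 (0.06) and Cyp2e1 (0.21) did without 10 °C replicate 3. Fabp1, a hepatocyte marker, was not called without 10 °C replicate 3 either. Fabp1 was at 3.7 without 22 °C replicate 3. Nnat and Thrsp, followed by the study across tissues, measured 654 to 783 CPM and 12.1 to 14.7 CPM at 22 °C and differed by -0.05 ± 0.06 and 0.19 ± 0.10 without passing. Atp2a1, the muscle calcium pump, is reported by the study as decreased in several tissues, hypothalamus among them. Here it differed by -0.83 ± 0.54 at levels up to 3.03 CPM and was not called by the quasi-likelihood test.

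The response was compared with that of brain from the same experiment, with 3 libraries at 10 °C and 2 at 22 °C. The brain library of 22 °C replicate 2 was left out, since its hepatocyte genes without Itih3 summed to 113922.7 CPM, against 9.12 to 34.1 CPM in the other 5. In brain alone 0.801% of 13976 genes met both limits, 0.515% higher and 0.286% lower, and 0.122% had an adjusted p under 0.05. Tested as a difference between the tissues, 682 of 14421 genes had an unadjusted p within the 0.05 limit (4.73%), and 1, Arc, had an adjusted p under 0.05 (0.00693% of genes). Arc, an activity-regulated gene of synapses, measured 23.9, 25.2 and 26.01 CPM at 22 °C and 28.1, 27.5 and 30.4 CPM at 10 °C in hypothalamus. In brain it measured 165 and 140 CPM at 22 °C and 332, 393 and 349.5 CPM at 10 °C. The log2 response was 0.19 ± 0.07 in hypothalamus and 1.23 ± 0.09 in brain, and the difference was -1.05 ± 0.12 (adjusted p of 0.0012).

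Immediate early genes as a list differed in the same direction. Of 20 genes, 18 were higher in brain at the unadjusted p, against 5.03% of all brain genes, and 5 were higher in hypothalamus. The difference itself had an unadjusted p within the 0.05 limit in 11 of the 20, all with the smaller response in hypothalamus. Besides Arc, the smallest p values of the difference were those of Dusp1 (-0.86 ± 0.16), Dusp6 (-0.54 ± 0.11), Klf10 (-0.76 ± 0.16), Esrrb (-1.65 ± 0.36), Nr4a1 (-1.09 ± 0.24), Rsrp1 (-0.48 ± 0.11) and Npy (0.58 ± 0.13), with adjusted p between 0.24 and 0.54. Fosl2 did not follow the others, with log2 responses of 0.49 ± 0.08 in hypothalamus and 0.56 ± 0.12 in brain and an unadjusted p of 0.6 for the difference.

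Npy measured 52.6 and 55.0 CPM at 22 °C and 49.2, 59.9 and 49.4 CPM at 10 °C in brain, with overlapping groups (-0.03 ± 0.09 log2, unadjusted p of 0.78), and the responses of the tissues differed by 0.58 ± 0.13 log2 (unadjusted p of 0.00031, adjusted p of 0.54). Agrp was read at 0.24 to 0.71 CPM in brain, and its difference between the tissues was 1.51 ± 0.42 log2 (unadjusted p of 0.0023). Npvf was at 0.07 CPM or less in every brain library, so no response could be compared. Hcrt was at 1.56 and 0.93 CPM at 22 °C and up to 4.63 CPM at 10 °C in brain, and its response differed by -1.67 ± 0.53 log2 (unadjusted p of 0.0056). Pmch, read at 1.06 and 1.497 CPM at 22 °C and 2.31, 2.14 and 1.997 CPM at 10 °C in brain, differed between the tissues by -0.87 ± 0.22 log2 (unadjusted p of 0.0012), and Oxt by -0.90 ± 0.39 (unadjusted p of 0.035). Avp was higher in brain as well, at 2.19 and 3.10 CPM against 7.85, 4.43 and 4.96 CPM, and its responses differed by -0.45 ± 0.43 (unadjusted p of 0.31). Of 9 hypothalamus markers tested in brain, 4 were higher and none lower at the unadjusted p, against 5.03% and 3.82% of all brain genes. Their median log2 fold change in brain was 0.26. The part of hypothalamic tissue in the brain values was not tested. Pomc differed between the tissues by 2.36 ± 0.61 (unadjusted p of 0.0012), where brain 22 °C replicate 3 stood at 13.7 CPM and the other 4 libraries at 1.18 to 1.63 CPM. Gh, a pituitary marker, was at 16.57 CPM in that library and at 3.971 CPM or less in the other 4. Of 5 pituitary markers tested in brain, 2 were lower and none higher at the unadjusted p, against 3.82% and 5.03% of all brain genes. The part of pituitary tissue in the Pomc value was not tested. None of the differences between the tissues given for these peptides had an adjusted p under 0.05 (edgeR interaction test).

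Several other responses gave no detectable difference between the tissues at this depth and number of libraries. The 16 myelin genes had 10 lower and none higher in brain at the unadjusted p, against 3.82% of all brain genes, with a median of -0.19, and in none of the 16 did the difference between the tissues pass the unadjusted p. Mbp differed by -0.32 ± 0.09 in brain, and the difference between the tissues was 0.05 ± 0.09 log2. Dnajb1 differed by 0.39 ± 0.09 in brain (unadjusted p of 0.00018), 0.00 ± 0.10 apart from hypothalamus. Nr1d1 and Dbp differed by -0.25 ± 0.11 and -0.29 ± 0.14 in brain, both at an unadjusted p under the limit. Clock genes were in part an exception. Of 20, 6 were higher and 2 lower in brain, against 5.03% and 3.82% of all brain genes, and 2 had a smaller or opposite response in hypothalamus at the unadjusted p, Per1 (-0.51 ± 0.13, unadjusted p of 0.00087) and Bhlhe40 (-0.32 ± 0.09, unadjusted p of 0.002). Per1 measured 33.0 and 37.0 CPM at 22 °C and 43.9, 51.1 and 48.05 CPM at 10 °C in brain. Hbb-bs differed by 0.51 ± 0.12 in brain, and red cell genes had 5 of 7 higher there, against 5.03% of all brain genes. Whether hypothalamus and brain libraries came from the same mice is not stated, so the responses may share animals.

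**Figure D5:**
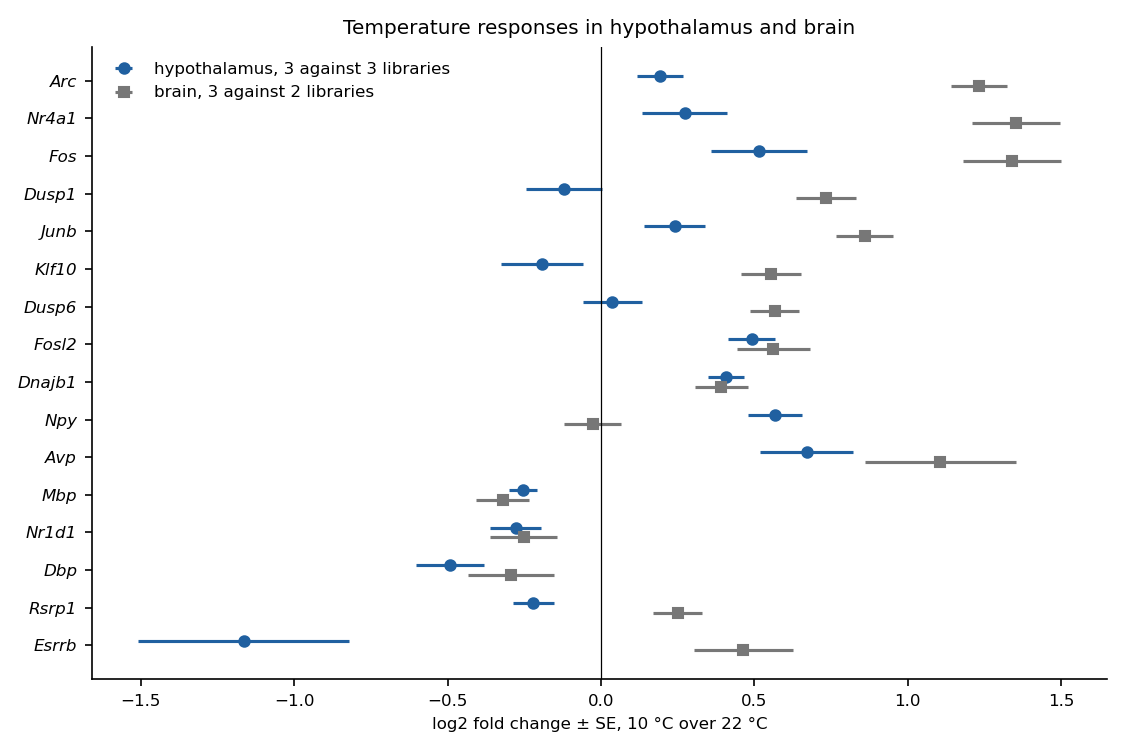
Log2 fold changes at 10 °C over 22 °C with standard errors (x axis) of 16 genes in hypothalamus (circles, 3 against 3 libraries) and brain (squares, 3 against 2 libraries). Arc, Nr4a1, Fos, Dusp1 and Junb lie further to the right in brain, Npy lies to the right in hypothalamus alone, and the error bars of the tissues overlap for Fosl2, Dnajb1, Mbp, Nr1d1 and Dbp.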

How the data were processed

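RNA of the 6 hypothalamus pools was sequenced on an Illumina HiSeq from NEBNext Ultra libraries. The authors aligned reads to mm10 with STAR, counted reads per gene with HTSeq and deposited raw counts of 21647 genes, used here unscaled (21583 with a symbol). The submitters' processing notes name STAR 2.5.3a, Picard 1.141 and HTSeq 0.6p1; the paper's methods name other versions of STAR and HTSeq. Genes whose average log2 CPM exceeded 0 were tested with edgeR 4.0.16 (R 4.3.3, TMM, two-sided quasi-likelihood F-test), with Benjamini-Hochberg adjustment over all genes tested. The fit was tested on simulated data, and the outcome for unchanged genes is given with the calls. Hypothalamus and brain were compared by an interaction term. Gene positions are from GENCODE M21 (GRCm38). Reads without molecular identifiers include PCR copies.

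The members and gene lists were chosen with earlier results of these data known. Named genes are the 12 largest rises and the 12 largest falls among called genes without overlap, called members of the biology lists, up to 4 members of a list without a call (by level and by p), 5 genes the study names as shared between tissues, and the 8 smallest p values of the interaction; genes named beyond these were chosen after their values were seen. Alternatives were edgeR's exact test, DESeq2 1.42.0, library size scaling, 2 other filters, each library left out and the replicate number as a block. Since each library pools 2 mice, p-values measure the spread between pools. Some list members are counted but not reported here by name.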

Additional observations from a re-analysis of the deposited data

Results flagged for a closer look

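Arc responded differently to 10 °C in hypothalamus and brain, by -1.05 on the log2 scale with an adjusted p of 0.0012 from edgeR's test of the interaction. All 3 cold libraries were higher than every control in both tissues, with the smaller difference in hypothalamus. With all 3 brain libraries at 22 °C, including the one with liver transcripts, the adjusted p was 0.76.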

How the results depend on the processing

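The 84 calls became 37 with DESeq2, 252 when genes with more than 1 count were kept, 897 with no fold limit and 53 without genes at least 10 times higher in liver, and 70 to 183 when 1 library was left out (183 without 22 °C replicate 2, 127 without 10 °C replicate 2). Summed markers of meninges and fibroblasts were 104.3, 421.1 and 156.4 CPM at 22 °C and 302, 280.3 and 180.3 CPM at 10 °C, so 22 °C replicate 2 was the highest. Of 14 such markers tested none passed the unadjusted p. The part of meningeal tissue in these counts was not tested. The share of calls that were higher was 69.05%, and 83.6% without 22 °C replicate 2 and 58.6% without 10 °C replicate 3. Genes with an adjusted p under 0.05 numbered 0, and 24 with edgeR's exact test, 22 with DESeq2 and 0 to 11 with 1 library left out (11 without 22 °C replicate 2). Called neuropeptides numbered 3, and 3 to 6 with 1 library left out (6 without 22 °C replicate 1). Called hepatocyte genes numbered 11, and 17 with the exact test, 1 with DESeq2, 17 with more than 1 count, 5 without the third library of both groups (chosen after seeing the data, as was the liver limit), and 0 to 20 with 1 library left out (0 without 10 °C replicate 3 or 22 °C replicate 1). Only 12 hepatocyte genes passed the filter without 10 °C replicate 3, against 21 with all libraries. Without 10 °C replicate 3, Alb reversed to -0.272 and Ahsg to -0.0397, while without 22 °C replicate 3 they were 5.05 and 4.51. Genes that differed from brain numbered 1, and 0 with all 3 brain libraries at 22 °C, 2 with DESeq2 (Arc and Dusp1) and 1 to 3 with 1 hypothalamus library left out. The causes were not tested. Heat shock and myelin counts stayed within 1.5 times in the alternatives run. Of 161 named genes with an unadjusted p of at most 0.05, 49 kept their direction and that limit under every alternative run.

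The replicate numbers are not tied to animals in the sources used here, and the deviations of same-numbered libraries correlated at -0.0919, 0.131 and 0.288. With the replicate block 106 genes were called, 14 had an adjusted p under 0.05, and 18 hepatocyte genes were called. Most calls are of genes under 5 CPM, where counting error limits precision.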
